A study of Drosophila melanogaster with 6 samples.

Results

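The cytosolic ribosomal protein genes of Drosophila melanogaster were followed in whole embryos that lacked or carried normal sage function. A gene was counted here if its annotated symbol starts with RpL or RpS followed by a digit or P, and if a probe set of the array named it alone. Of 92 genes with such a symbol in RefSeq, 41 had a probe set of that kind, among 11982 genes measured in all. They comprised 25 of 54 RpL genes and 16 of 38 RpS genes. The other 51 were not analysed here. Where a gene had several probe sets, the brightest one stood for it, and its level is that probe set's log2 signal. All 41 had a mean of at least 5 over the arrays, so none was lost to the filter on dim probe sets.

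The series asked which genes depend on Sage, a bHLH protein that regulates transcription in the salivary gland of the embryo. Its controls were 3 arrays of RNA from wild type embryos of the Oregon R strain, with no treatment other than that given to the mutants. The other 3 arrays held RNA from age-matched sage mutant embryos, whose lesion and strain background are not given in the sources used here. Embryos of both groups were at stages 11 to 16, kept at 25 degrees and sorted on a COPAS instrument before RNA was extracted from whole animals. Nothing in the labels says that the replicates were separate collections. The p-values therefore reflect the spread among these 6 samples alone, and that spread may be technical. In whole embryos, fewer cells of a type and less RNA per cell cannot be told apart.

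A cytosolic ribosome is built from ribosomal RNA and one copy of most of its proteins, those of the large subunit (RpL) and those of the small subunit (RpS). The large subunit joins amino acids and the small subunit reads the messenger RNA. In flies, many of these genes are known as Minute loci, since losing a single copy slows development and thins the bristles. Some have a duplicate that is used mainly in testis or ovary, and a few genes with "-like" symbols resemble assembly factors of yeast more than proteins of the mature ribosome.

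Control transcripts and array quality differed between the groups. sage itself, the gene that defines the mutants, had signals of 8.21, 8.61 and 7.93 in wild type and 5.28, 5.44 and 5.12 in the mutants (log2 change −2.97, SE 0.19, limma adjusted p = 0.00125). The mean 5′ minus 3′ signal difference of 5 fly control transcripts was −1.84 ± 0.08 for wild type and −3.68 ± 0.61 for mutant arrays (SD, n = 3 each), without overlap. The mean correlation of an array with the others of its group was 0.977 for wild type replicate 2, 0.985 and 0.987 for the other wild type arrays, and 0.990 to 0.993 for the mutants. Of 10 measured markers of nervous system, muscle, epidermis, trachea, blood cells, midgut and salivary gland, 2 fell (sage and Pxn) and 3 rose (alphaTry, Mp20 and NimC1). Over all 11982 genes, 252 were lower and 345 higher. Of the salivary gland markers, sage is the mutated gene itself, and fkh was not called (log2 change −0.28, limma adjusted p = 0.591). The blood cell markers moved in opposite directions (log2 change −0.77 for Pxn and 0.74 for NimC1). So did those of the nervous system, without a call (−0.94 for repo and 0.82 for elav, limma adjusted p = 0.0521 and 0.485). The summed log2 signal of the 10 markers ran from 88.6 to 90.8 in wild type and from 90.7 to 91.5 in the mutants. Opposite shifts cancel in that sum, so it does not measure tissue content. The part of these differences in the results on ribosomal protein genes was not tested. Changes from a fit with the 5′ minus 3′ value as a covariate are given below as values only. That covariate did not overlap between the groups, so the fit cannot separate it from genotype.

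Most ribosomal protein genes differed little between mutant and wild type embryos. The log2 change, mutant minus wild type, lay within 0.1 of zero for 26 of 41 genes (63.4%) and within 0.2 for 31 (75.6%). Over all 11982 genes, these shares were 30.7% and 52.8%. Most of the 41 gave strong signals. The 157 other probe sets in the brightest 1% of the array had shares of 51.0% and 75.2%, the second close to that of the ribosomal protein genes. Those 157 were not limited to probe sets naming 1 gene, so ribosomal protein genes not analysed here may be among them. The 242 other genes with a mean over 12 had shares of 33.5% and 51.7%. The 32 ribosomal protein genes above that level had 68.8% and 84.4%, but also a higher median mean (14.28 against 12.50). The median change of the 41 genes was 0.032, beside −0.012 over all genes and −0.031 over all 18769 probe sets, and it turned to −0.036 when the array medians were set equal. In the deposited scaling, 28 of the 41 had a change above zero and 13 below, and with equal array medians 14 were above and 27 below. The changes ran from −1.85 for RpL27 to 0.67 for RpS28-like. These shares are a description, since the list was chosen with earlier results of these arrays known.

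**Figure D1:**
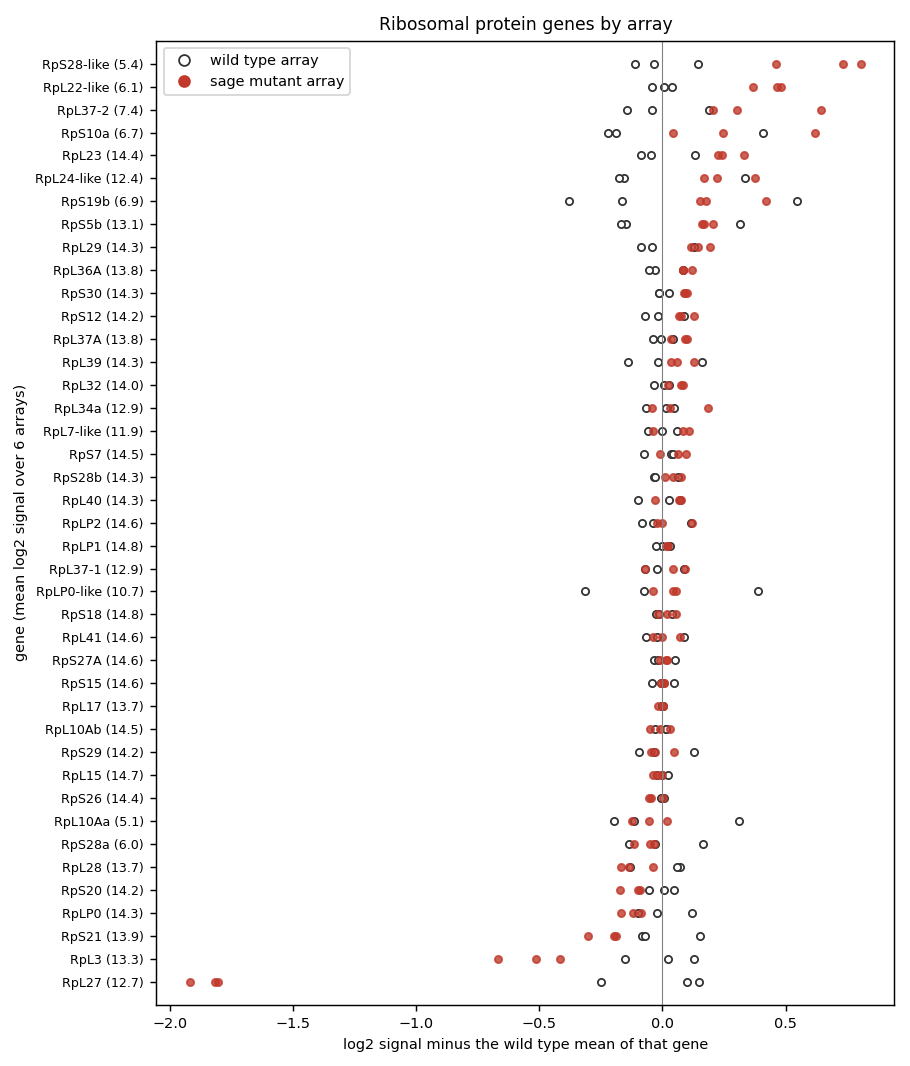
Each row is 1 ribosomal protein gene, with its mean log2 signal over the 6 arrays in brackets. Open circles are the 3 wild type arrays and filled circles the 3 sage mutant arrays, each as log2 signal minus the wild type mean of that gene, in order of the log2 change from −1.85 (RpL27) to 0.67 (RpS28-like). The mutant circles of RpL27 stand apart at the bottom, while 26 of the 41 genes have group means within 0.1 of each other.

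By limma with Benjamini-Hochberg adjustment over all 18769 probe sets, 1 of the 41 genes fell (RpL27) and 2 rose (RpS28-like and RpL22-like). Across the array, 1.93% of probe sets were called lower and 2.1% higher. Counts of 1 and 2 among 41 genes are too small to be told from these shares. The groups did not overlap for 9 of the 41 genes, 4 lower and 5 higher, or 22.0%, against 24.4% of all probe sets. An unadjusted p under 0.05 was found for 6 of the 41 (14.6%), beside 18.7% of all probe sets and 22.5% of all genes.

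RpL27, a protein of the large subunit encoded on chromosome arm 3R, had the largest change of the 41. Its signals in replicates 1, 2 and 3 were 13.78, 13.39 and 13.74 for wild type and 11.83, 11.72 and 11.82 for the mutants. All 3 mutant arrays lay far below the lowest wild type array, and the mutant values were close together. The gene fell 3.60-fold, from 13.64 ± 0.22 to 11.79 ± 0.06 (SD, n = 3 each), a log2 change of −1.85 with an SE of 0.13 (limma adjusted p = 0.00194). RpL27 had 1 probe set here, so a second one could not be set beside it. In a fit that also held the 5′ minus 3′ value of the controls the change was −1.99 (SE 0.39, limma adjusted p = 0.292). No probe set of the array passed in that fit. Since the 5′ minus 3′ value did not overlap between the groups, the fit cannot separate it from genotype. Without any 1 array the change stayed between −1.97 and −1.77 and passed each time (limma adjusted p from 0.000613 to 0.0206).

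RpL3, which lies near the site of peptide bond formation, is also encoded on 3R and came next. Its brightest probe set read 13.71, 13.44 and 13.61 in wild type and 13.17, 12.92 and 13.07 in the mutants. The groups did not overlap, but the difference missed the threshold (log2 change −0.53, SE 0.12, limma adjusted p = 0.0649). It passed without wild type replicate 2 (log2 change −0.61, limma adjusted p = 0.039) and when the array medians were set equal (0.0424).

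A second, dimmer probe set of RpL3 differed more. Its signals were 8.56, 7.84 and 8.67 in wild type and 5.74, 6.85 and 7.02 in the mutants, again without overlap. Its log2 change was −1.82 (SE 0.38, limma adjusted p = 0.0544). With the 5′ minus 3′ value of the controls in the fit, that probe set had a change of 0.06 (SE 0.78), while the brightest had −0.80 (SE 0.34). As for RpL27, that fit cannot separate the 5′ minus 3′ value from genotype. Among the mutants, replicate 1 had the lowest 5′ minus 3′ value (−4.35, beside −3.51 and −3.17) and also the lowest signal of this dimmer probe set. Within wild type, replicate 2 had the highest 5′ minus 3′ value (−1.76, beside −1.88 and −1.89) and the lowest signal. These wild type values lie close together, and a link between them and the signal was not tested. The change passed without mutant replicate 1 (−1.42, limma adjusted p = 0.0461) and without wild type replicate 2 (−2.08, 0.0323). It did not pass without any of the other 4 arrays (limma adjusted p from 0.132 to 0.166) or with the replicate block (0.0741). It passed after quantile normalization, with equal array medians, under both filters on dim probe sets, with trend and robust variance and with array weights (limma adjusted p from 0.00795 to 0.0476). The third probe set of RpL3 was dim in every array, between 4.30 and 4.86, and had a change of −0.19 with overlapping groups. Without the covariate, the 3 probe sets of RpL3 disagreed in the size of the change but not in its sign.

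**Figure D2:**
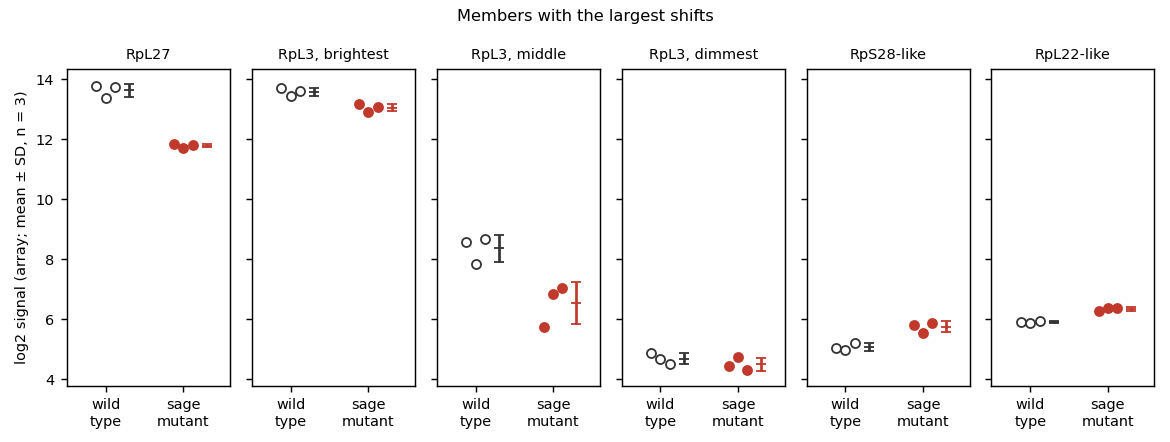
Log2 signal on each array (circles) with the mean ± SD (n = 3) for RpL27, the 3 probe sets of RpL3, RpS28-like and RpL22-like, wild type in open and sage mutant in filled symbols. RpL27 drops from 13.64 to 11.79, the middle probe set of RpL3 from 8.36 to 6.54, and the mutant circles of RpS28-like and RpL22-like lie above all wild type ones.

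Neither gene lies next to sage. In RefSeq order along 3R, 305 annotated genes separate RpL3 from sage and 2546 separate RpL27 from it. Of the 16 measured genes among the 10 on each side of RpL27, 2 were lower and none higher, and of the 14 around RpL3 none was called. On the whole arm, 73 of 2974 genes were lower and 88 higher. These windows were chosen after the values were seen. The 14 ribosomal protein genes measured on 3R had a median change of 0.055, and RpL27 was the only 1 of them called.

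The 2 genes that rose are both relatives of a standard ribosomal protein gene, and both gave weak signals. RpS28-like, a relative of the small subunit gene RpS28, read 5.04, 4.96 and 5.22 in wild type and 5.80, 5.53 and 5.88 in the mutants. Every mutant value was above every wild type value. The gene rose 1.59-fold (log2 change 0.67, SE 0.13, limma adjusted p = 0.0451).

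RpL22-like, a duplicate of RpL22 known from the testis, read 5.90, 5.85 and 5.94 in wild type and 6.26, 6.36 and 6.38 in the mutants. It rose 1.35-fold (log2 change 0.44, SE 0.09, limma adjusted p = 0.0491). With replicate number as a block, RpS28-like still passed (0.0441) and RpL22-like did not (0.082). Without any 1 array neither passed, with adjusted p-values from 0.0602 to 0.182 for RpS28-like and from 0.0644 to 0.19 for RpL22-like. Setting the array medians equal left the changes at 0.60 and 0.37 and also ended both calls (0.0565 and 0.0853). The median signal of all probe sets lay between 5.89 and 6.01 on each array, and detection above background was not assessed, so both fold changes are uncertain in size.

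No other gene of the large subunit passed the test. RpL23 read 14.22, 14.40 and 14.18 in wild type and 14.51, 14.60 and 14.49 in the mutants. All mutant arrays were above all wild type arrays, with a change of 0.27 that did not pass (SE 0.10, limma adjusted p = 0.22). RpL29 had 0.15 with overlapping groups and RpL28 had −0.11.

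RpLP0, RpLP1 and RpLP2 form the stalk that recruits elongation factors to the large subunit. RpLP0 read 14.35, 14.49 and 14.27 in wild type and 14.28, 14.25 and 14.20 in the mutants, a change of −0.13 with overlap at 1 mutant array. The 2 small acidic stalk proteins, RpLP1 and RpLP2, had changes of 0.021 and 0.032, well inside their SE of 0.08 and 0.10. RpL10Ab, on the other stalk of the subunit, had −0.0099. RpL32, often used as a reference transcript in flies, had signals between 13.96 and 14.02 in wild type and between 14.01 and 14.07 in the mutants, with overlap and a change of 0.060 (SE 0.08, limma adjusted p = 0.786).

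RpL40 is made as a fusion with ubiquitin, and so is RpS27A in the small subunit. Their changes were 0.038 and 0.0076. RpL15, RpL17, RpL34a, RpL36A, RpL37-1, RpL37A, RpL39 and RpL41 filled the rest of the bright large subunit genes, with changes from −0.021 (RpL15) to 0.095 (RpL36A) and adjusted p-values of at least 0.661.

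In the small subunit no bright gene passed the test. RpS21, whose loss is known to cause overgrowth of larval tissues in flies, read 13.88, 14.12 and 13.90 in wild type and 13.66, 13.78 and 13.77 in the mutants. The groups did not overlap (log2 change −0.23, SE 0.11, limma adjusted p = 0.318). With the 5′ minus 3′ covariate, which the fit cannot separate from genotype, the change was −0.0011 (SE 0.31). RpS20 read 14.32, 14.22 and 14.28 in wild type and 14.17, 14.10 and 14.18 in the mutants, again lower without overlap (log2 change −0.12, limma adjusted p = 0.549).

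RpS30, made as a fusion with a ubiquitin-like protein, moved the other way by a small and even amount. It read 14.27, 14.23 and 14.23 in wild type and 14.33, 14.33 and 14.34 in the mutants, with a change of 0.092 (SE 0.08, limma adjusted p = 0.644). Its SE came mostly from the variance that limma shares between probe sets, since the SD within its groups was 0.016. RpS7, RpS12, RpS15, RpS18, RpS26, RpS28b and RpS29 had changes from −0.033 (RpS26) to 0.089 (RpS12). A second bright probe set of RpS29 had 0.16 against −0.010 at the brightest, and its dimmest, near 4.3, had 0.37 (limma adjusted p = 0.0846). The dimmer probe sets of RpS30 and RpS7 had 0.31 and −0.23, and neither passed (limma adjusted p = 0.385 and 0.552).

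The large and the small subunit had similar median changes. The median log2 change was 0.032 over 25 RpL genes and 0.030 over 16 RpS genes, a difference of 0.0016. The mean differed by −0.10, since the mean counts RpL27 in full. Per array, the large subunit genes deviated from their wild type means by a median of −0.0034, 0.029 and −0.034 in wild type and 0.032, 0.029 and 0.042 in the mutants. The small subunit genes had −0.034, 0.058 and −0.030 in wild type and 0.030, 0.051 and 0.013 in the mutants. In both subunits, wild type replicate 2 lay close to or above the mutant arrays and wild type replicates 1 and 3 lay below them. The difference between the subunits had an SD between arrays of a group of 0.028, far above the difference of 0.0016. Another summary gave a small gap. The median signal of the large subunit genes minus that of the small subunit genes was −0.42 on each wild type array and −0.39, −0.39 and −0.34 on the mutant arrays, without overlap (−0.422 ± 0.0019 and −0.374 ± 0.026, SD, n = 3 each). That gap of 0.048 was not tested, and it rests on the few genes at the middle of each list.

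**Figure D3:**
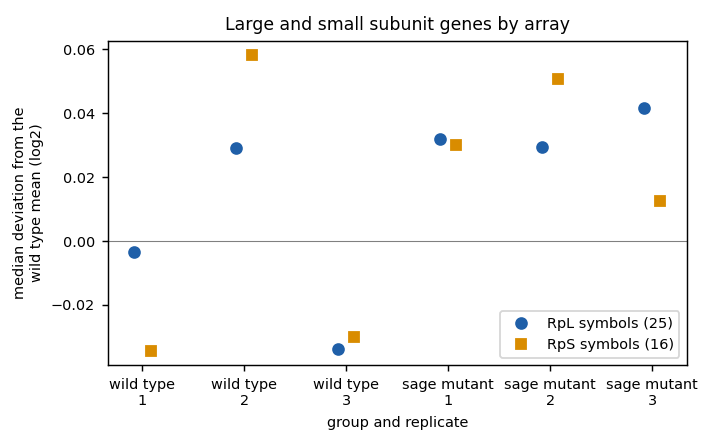
For each array, the median over 25 large subunit genes (circles) and 16 small subunit genes (squares) of the log2 signal minus the gene's wild type mean. All points lie between −0.034 and 0.058, and wild type replicate 2 is close to or above the mutant arrays for both subunits.

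Signal was high for most of these genes. 30 of the 41 were in the brightest 1% of probe sets, which held 188 in all, and 21 of the 71 probe sets with a mean over 14 were the representative probe sets of these genes. RpS18 (14.79), RpLP1 (14.79), RpL15 (14.70), RpS15 (14.63) and RpL41 (14.62) had the highest means over the 6 arrays, while the brightest probe set of any array read 14.88. Signals so close to the top of the range can be compressed, and how far true differences were reduced there was not tested. RpL10Aa (5.15), RpS28-like (5.40), RpS28a (6.01), RpL22-like (6.12) and RpS10a (6.73) had the lowest means. Probe sets differ in how strongly they bind, so these means do not rank the transcripts.

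**Figure D4:**
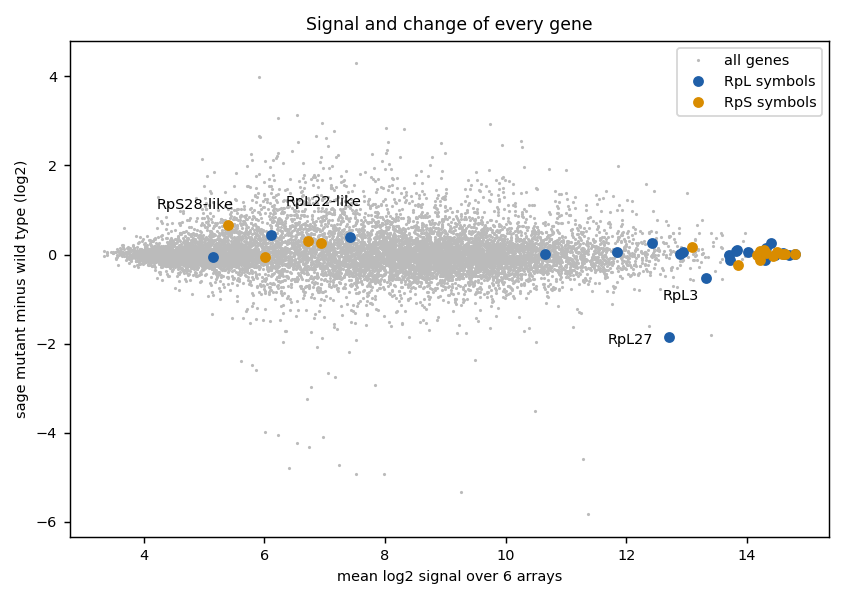
Every gene is a grey dot at its mean log2 signal over 6 arrays (horizontal) and its log2 change, mutant minus wild type (vertical), with RpL genes and RpS genes as coloured circles. Most ribosomal protein genes form a flat cluster at the right edge, with RpL27 at −1.85 and RpL3 at −0.53 below it, and the dim RpS28-like and RpL22-like above zero at the left.

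Spread between replicates was small for most of the bright ribosomal protein genes. How far compression near the top of the range reduced that spread was not tested. The median SD within groups was 0.066 for the 32 genes with a mean over 12, and 0.19 for the 242 other genes above that level, whose median mean was 12.50 against 14.28. RpL17 was the steadiest, with 13.70 on all 3 wild type arrays and 13.70, 13.70 and 13.68 in the mutants (SD within groups 0.0088). RpS30, RpL15, RpLP1 and RpS26 followed, with 0.016 to 0.023. For the 9 genes under that level the median was 0.20.

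The largest SDs within groups were those of RpS19b (0.36), RpS10a (0.32), RpLP0-like (0.26), RpL24-like (0.22) and RpL37-2 (0.20). RpL10Aa (0.198) and RpS5b (0.194) followed. All are known duplicates or are named after another ribosomal protein gene. Wild type replicate 2 carried much of the spread in most of them. RpL37-2 differed, with a larger SD in the mutants (0.23) than in wild type (0.17). Other duplicates were steadier, with an SD within groups of 0.033 for RpL10Ab, 0.045 for RpS28b and 0.053 for RpL22-like. In RpL22-like and RpS28-like, wild type replicate 2 was the lowest wild type array. Dim signal and duplication were not separated here. RpS19b, a duplicate used in the germ line, read 6.65, 7.36 and 6.43 in wild type and 6.99, 7.24 and 6.97 in the mutants, so that wild type replicate 2 was the highest of all 6 arrays. RpS10a read 6.39, 6.99 and 6.36 against 6.82, 7.20 and 6.62. RpS5b, a duplicate known from the ovary, read 12.85, 13.32 and 12.83 against 13.20, 13.16 and 13.17. In all 3 genes wild type replicate 2 overlapped or exceeded the mutants, and the other wild type arrays lay below them. Taken by replicate number, RpS10a was higher in the mutant in all 3 pairs, by 0.43, 0.21 and 0.27, and did not pass with the replicate block (limma adjusted p = 0.182). RpS19b and RpS5b were higher in pairs 1 and 3 and lower in pair 2.

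RpL24-like and RpLP0-like, whose yeast relatives help to assemble the large subunit, were also highest within wild type in replicate 2. RpL24-like read 12.15, 12.64 and 12.13 in wild type and 12.53, 12.68 and 12.47 in the mutants. RpLP0-like read 10.57, 11.04 and 10.34 in wild type and 10.69, 10.70 and 10.61 in the mutants. RpL24-like was higher in the mutant in all 3 pairs (0.38, 0.043 and 0.35, limma adjusted p = 0.292 with the replicate block), while RpLP0-like was lower in pair 2. None of RpS19b, RpS10a, RpS5b, RpL24-like and RpLP0-like passed the test. Their changes ran from 0.019 (RpLP0-like) to 0.30 (RpS10a), with adjusted p-values of at least 0.482. RpL7-like, whose yeast relative is also an assembly factor, had no such gap (log2 change 0.051). The summed log2 signal of 9 germ line markers was 63.9, 61.2 and 66.6 in wild type and 65.7, 63.0 and 67.6 in the mutants. Opposite shifts cancel in this sum too, so it does not measure germ line content. In wild type replicate 2, tud had 7.92, beside 10.07 and 10.13 in the other wild type arrays. The part of germ line content in these results was not tested. None of the 9 markers passed. osk and exu had the smallest p-values, with changes of 1.27 and 0.47 (limma adjusted p = 0.187 and 0.33).

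Replicate 2 was the highest array of its group for many of the 41 genes, and the lowest for others. Within wild type, 27 of the 41 genes were highest in replicate 2, and within the mutants 21 were, with 20 genes highest there in both. Over all genes these shares were 50.4%, 35.6% and 23.2%. Lowest in replicate 2 were 12 of the 41 genes within wild type and 14 within the mutants, with RpL27 and RpL3 among both. Of the 41 genes, 27 reached their overall maximum in one of the arrays numbered 2, a share that was not counted over all genes. 30 of the 41 had a smaller SD in the mutants than in wild type, beside 60.4% of all genes.

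Where both genes of a pair with matching symbols were measured, their changes can be set side by side. The pairs rest on symbols alone, so a "-like" gene need not be a copy of its partner. RpL10Ab and RpL10Aa had −0.0099 and −0.053, and RpS28b and RpS28a had 0.043 and −0.066, while RpS28-like rose by 0.67. RpLP0 and RpLP0-like had −0.13 and 0.019. RpL37-1 and RpL37-2, a pair added after the values were seen, had 0.020 and 0.38. RpL37-2 read 7.19, 7.42 and 7.09 in wild type and 7.44, 7.88 and 7.54 in the mutants, with the lowest mutant array just above the highest wild type array (limma adjusted p = 0.247). In RpL22-like, RpL24-like, RpL7-like, RpS5b, RpS10a, RpS19b and RpL34a, the partner by symbol was not analysed here. For 14 of the 41 genes the representative probe set carried the suffix that Affymetrix gives to probes shared by several transcripts, so near-identical copies may contribute to it.

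Other genes of translation gave no calls by their brightest probe sets. Rack1, a protein of the small subunit with another kind of symbol, read 14.34, 14.28 and 14.33 in wild type and 14.26, 14.17 and 14.28 in the mutants, just without overlap (log2 change −0.078, limma adjusted p = 0.726). None of 22 measured initiation factors passed limma, and 4 (18.2%) had an unadjusted p below 0.05, beside 22.5% of all genes. Their median change was −0.049. eIF3i and eIF3c, both subunits of the factor that prepares the small subunit for messenger RNA, had −0.44 and −1.15 (limma adjusted p = 0.0736 and 0.135). Of 7 elongation and release factors none passed and 1 (14.3%) had an unadjusted p under 0.05. All 7 had changes below zero, with a median of −0.25, and eEF1delta and pelo had −0.54 and −0.48 (limma adjusted p = 0.0815 and 0.31).

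Genes that build ribosomes or control their production were likewise without a call. Of 30 biogenesis factors none passed and 7 had an unadjusted p under 0.05 (23.3%, beside 22.5% of all genes), with a median change of −0.11. The nucleolar GTPase gene Ns2 read 6.83, 7.28 and 6.76 in wild type and 6.23, 6.25 and 6.24 in the mutants (log2 change −0.72, limma adjusted p = 0.0541), and ppan had −0.57 (limma adjusted p = 0.0926). Of 17 regulators none passed and 4 had an unadjusted p under 0.05 (23.5%), with a median of −0.16. Tif-IA, which starts transcription of ribosomal RNA, read 10.83, 11.09 and 10.63 in wild type and 10.32, 9.98 and 9.99 in the mutants (log2 change −0.75, limma adjusted p = 0.0559). The stress factor gene crc had −0.43 (limma adjusted p = 0.058). With array weights, 3 of 22 initiation factors and 1 of 7 elongation and release factors passed. So did 3 of 30 biogenesis factors and 3 of 17 regulators. Over the array, those weights called 1230 of 18769 probe sets lower and 1507 higher, and counts this small cannot be told from that share. M1BP, a factor known to bind promoters of ribosomal protein genes, had −0.31 (limma adjusted p = 0.283).

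The 69 measured mitochondrial ribosomal protein genes had a median change of 0.047, with 1 lower and 1 higher. Over all 11982 genes, 252 were lower and 345 higher, so these counts are too small to be told from that share. An unadjusted p under 0.05 was found for 7 of the 69 (10.1%), beside 22.5% of all genes. mRpS5 fell 2.34-fold and mRpL48 rose 1.90-fold (limma adjusted p = 0.0109 and 0.0231). Neither passed without mutant replicate 2 or 3, nor mRpL48 without wild type replicate 1 or 3 or with the replicate block (0.0548). The median SD within groups was 0.28 in that list, beside 0.082 for the cytosolic genes. A difference between the 2 families was not tested.

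Across the 6 arrays, the genes outside the family whose signal most resembled the median of the 41 were CG7789, CG10340, CG9921, CG17065 and CG11816, with Pearson correlations from 0.993 to 0.998. 425 of 11941 genes had a correlation over 0.9. With 6 points that share arrays and normalization, this is a description only.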

How the data were processed

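RNA from 6 samples was hybridised to 6 Affymetrix 3′ expression arrays. Each array's deposited column holds log2 signals, 1 for every probe set. RMA and Partek are named in the submitters' processing notes, their versions are not given in the sources used here, and base 2 was inferred from RMA's default and from the range of the deposited log2 values. Of 18952 rows, 183 control probe sets were used only for checks, which left 18769. 13647 named 1 gene, 402 several and 4720 none in the annotation used here. Symbols were updated through RefSeq (Release 6 plus ISO1 MT), which changed none of the members' symbols. No coordinates or sequences are given.

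Mutant and wild type were compared in limma 3.58.1 (R 4.3.3) by lmFit and eBayes with no covariate. Benjamini-Hochberg adjustment ran over the 18769 probe sets, with a threshold of 0.05. Adjusted p-values are limma's throughout. The number of arrays limits the precision. The fit was also run on simulated normal values. These had no pairing, array effects or 5′ minus 3′ difference, so that run does not cover these features of the data. Deviations from group means correlated at 0.17, 0.28 and 0.31 for arrays with the same replicate number in their titles. For other arrays the correlation ran from −0.30 to 0.14. The numbers were therefore taken to pair the samples. The main fit leaves this pairing out, and blocked values are given where they change a call. Members and lists were chosen with earlier results of these data known. Named in full were members passing the test, with the 10 largest rises and falls and the 5 largest and smallest SDs. So were the 5 highest and lowest means, genes paired by symbol, and up to 6 called genes, or else 2, of each other list. M1BP, fkh, repo, elav, tud, the second RpL37 gene and the dimmer probe sets were added to these once their values were known. The alternatives were other normalizations, filters on dim probe sets, variance models, array weights, the replicate block, the control difference as a covariate, probe set choices and leaving out each array.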

Additional observations from a re-analysis of the deposited data

How the results depend on the processing

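The fall of RpL27 passed in 15 of 16 alternatives, with log2 changes from −1.99 to −1.77, and failed only with the 5′ minus 3′ covariate. In that fit, whose covariate did not overlap between the groups, 0 of 18769 probe sets passed limma, 1613 had an unadjusted p under 0.05, no member passed in either direction (0 lower, 0 higher) and the members' median was 0.069. The number of members that rose, 2 in the main fit, was 0 after quantile normalization, after centring and among probe sets above the median level (where RpS28-like was not tested), 1 with a mean of at least 5, with trend and robust variance, with the replicate block, with 1 probe set per gene and with the mean of all probe sets, and 0 (lowest and highest) without any 1 array. It was 3 with array weights, RpL23 included (limma adjusted p = 0.0425). The number that fell was 2 after centring, with array weights and with the mean of all probe sets, RpL3 being the second, and between 1 and 2 without 1 array (2 without wild type replicate 2). Over all probe sets, 757 passed, against 2737 with array weights, 641 with the replicate block and 134 to 1111 without 1 array. The 757 were 363 lower and 394 higher, against 465 and 334 after centring. The members' median change was −0.036 after centring and 0.25 over the 11 members outside the brightest 1%, and 0.010 to 0.054 without 1 array. The median difference between large and small subunit was −0.012 to 0.048 without 1 array, and −0.10 as a mean. The replicate block changed no call of a member besides RpL22-like, and ended that of mRpL48. The promoter motif counts planned at the start were not run. Low signals near the array median limit the dim members, and signals near the top of the range limit the bright ones.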

Other observations

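The annotation held 3 probe sets that name a ribosomal protein gene together with another gene, and none of them was used above. The one shared by RpL28 and snoRNA:Or-CD12, a small nucleolar RNA, read 8.08, 7.57 and 7.40 in wild type and 8.53, 8.21 and 8.60 in the mutants. All mutant values were above the wild type values, with a log2 change of 0.76 that missed the threshold (SE 0.20, limma adjusted p = 0.102), while the probe set naming RpL28 alone had −0.11. The probe sets shared by RpLP0 and euc and by RpL7-like and CG34164 had −0.020 and 0.011.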
